A study of Mus musculus with 3 samples.

Results

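Mature osteoblasts rich in osteocalcin were studied in 3 droplet libraries of RNA from single, sorted niche cells of mouse bone marrow. Barcodes counted as called cells when they held 1000 or more unique molecular identifiers (UMIs, each a counted RNA molecule), 500 or more genes and under 10% of UMIs in mitochondrial genes. The osteoblasts were chosen by measured values: a called cell was selected when Bglap and Bglap2, the osteocalcin genes, together held at least 1% of its UMIs, Col1a1, the gene of the main chain of type I collagen, held at least 0.5%, and the endothelial gene Cdh5 and the leukocyte gene Ptprc had 0 UMIs. This selected 262 of 16318 called cells. The untreated library (WT) gave 179 of 7129 cells, the library after bone marrow transplantation (BMT) gave 83 of 3621, and the library with acute graft-versus-host disease (aGVHD) gave 0 of 5568. Levels of Bglap, Bglap2 and Col1a1 in these cells therefore follow from the choice and are given as description.

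All mice were of the CB6F1 strain, the cross of BALB/c and C57BL/6. The WT library came from females left untreated. The BMT females were irradiated with 2 doses of 4.0 Gy and, 4 hours later, received nucleated marrow cells of B6.SJL (CD45.1) donors. The aGVHD mice had the same irradiation and marrow plus spleen cells of C57BL/6 females. Stromal cells were sorted by depletion of cells stained for CD45, lineage markers or CD71, with Calcein AM and DAPI used to remove dead cells. The sources used here do not give the age of the mice, the number of mice behind each library or the days from transplantation to collection. Each group has 1 library, so there were no replicates, no test was possible, and each difference describes these libraries. All intervals are 95% intervals that cover counting error only.

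Osteoblasts lay down bone by secreting type I collagen and the proteins that organise and mineralise it, among them osteocalcin, bone sialoprotein, osteonectin and osteopontin. The transcription factors Runx2 and Sp7 direct their formation from stromal precursors, and some osteoblasts become embedded as osteocytes, which express Dmp1 and later Sost. Osteocalcin marks the late, matrix-mineralising stage. Interferons, the cytokines that raise antigen presentation in most cell types, act through elements in the promoters of their target genes.

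The promoters of 3 genes are shown because they carry the identity of these cells (Bglap) and the largest gene group that was higher in BMT, the interferon-response genes (B2m and Socs1). Each sequence is the 250 bases before the RefSeq start site in GRCm38.p6, 5′ to 3′ on the gene's strand. The window of Bglap is chr3:88384467-88384716 (minus strand), that of B2m is chr2:122147437-122147686 (plus strand) and that of Socs1 is chr16:10785537-10785786 (minus strand). Capitals mark ACCACA, a core bound by RUNX factors, and TTACATCA, an osteoblast element, in Bglap, and, in the other two, a pair of GAAA separated by any 2 bases (GAAA, NN, GAAA), the core of an interferon-stimulated response element.
Bglap: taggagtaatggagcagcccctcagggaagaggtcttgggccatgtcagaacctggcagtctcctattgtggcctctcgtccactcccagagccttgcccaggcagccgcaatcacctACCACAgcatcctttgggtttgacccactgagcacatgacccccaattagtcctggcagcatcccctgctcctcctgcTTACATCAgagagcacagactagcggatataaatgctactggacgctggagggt
B2m: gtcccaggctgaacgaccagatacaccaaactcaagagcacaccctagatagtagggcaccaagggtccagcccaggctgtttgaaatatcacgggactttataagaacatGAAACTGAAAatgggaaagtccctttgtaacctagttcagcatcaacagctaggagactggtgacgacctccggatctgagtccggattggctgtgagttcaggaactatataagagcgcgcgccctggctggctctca
Socs1: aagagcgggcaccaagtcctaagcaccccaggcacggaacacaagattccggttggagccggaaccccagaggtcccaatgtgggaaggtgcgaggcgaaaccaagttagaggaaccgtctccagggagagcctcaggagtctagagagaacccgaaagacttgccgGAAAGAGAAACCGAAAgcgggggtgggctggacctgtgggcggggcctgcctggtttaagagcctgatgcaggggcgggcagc
Motifs were searched on both strands. ACCACA began 132 bases before the Bglap start site and TTACATCA began 54 bases before it; ACCACA was in 14.05% and TTACATCA in 0.965% of all 32851 promoter windows of this length. The GAAA pair began 139 bases before the B2m start site, and 2 overlapping copies began 83 and 77 bases before that of Socs1; it was in 2.98% of windows. Among genes with a window, the GAAA pair was found for 11 of 22 interferon gamma response genes, 12 of 28 type I interferon response genes, 3 of 12 MHC class I genes and 1 of 26 bone matrix genes, beside 3.46% of 27025 genes. ACCACA was found for 8 of 17 mineralisation genes (47.1%) and 4 of 26 bone matrix genes, beside 15.9% of all genes. A match describes the sequence only.

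The libraries held 86575425 UMIs (WT), 44219063 (BMT) and 67439098 (aGVHD), and the called cells had medians of 7355, 6932 and 6977.5 UMIs. Between 8 and 11 barcodes were shared by each pair of libraries among called cells, and 0 among the osteoblasts. By doublet score, 4 WT and 2 BMT osteoblasts were likely doublets. In WT, 5 osteoblasts had over 1% of UMIs in haemoglobin genes, with up to 47.2% in a single cell, and these 5 cells held 97.9% of the haemoglobin UMIs of the WT osteoblasts; in BMT 1 cell reached 1.29%.

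The label was checked against marker genes. All 16 genes of a mature osteoblast list were detected in most of the osteoblasts of both libraries and were higher there than in the other called cells; their summed share ran from 4.21% through a median of 24.9% to 54.2% in WT and from 5.73% through 32.2% to 69.1% in BMT. Every selected cell was therefore rich in osteoblast transcripts, which the selection itself required in part. Osteocyte markers were uneven. Sost, the sclerostin gene of mature osteocytes, had 3 UMIs in 1 WT cell and 0 in BMT, and Mepe, a mineral-associated matrix protein gene, was found in 9 WT and 3 BMT cells. Dmp1 was detected in 75 of 179 WT and 43 of 83 BMT cells, at 363 and 341 CPM (UMIs scaled to the same total) against 14.05 and 7.18 in the other called cells. Endothelial markers reached at most 0.113% of a cell's UMIs in WT and 0.0189% in BMT. Markers of LepR stromal cells, the Cxcl12-rich reticular cells of the marrow, exceeded 1% in 1 WT cell and in 0 BMT cells.

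Cells lay close to the limits of the selection without a gap. The 3 WT cells just inside the osteocalcin limit had 1.004%, 1.03% and 1.05% of UMIs in Bglap and Bglap2, and the 3 just outside had 0.952%, 0.891% and 0.890%. In BMT the nearest cell inside had 1.03% and the nearest outside 0.976%. In aGVHD, the cell with the highest osteocalcin share among cells that met the other conditions had 0.471%.

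**Figure D1:**
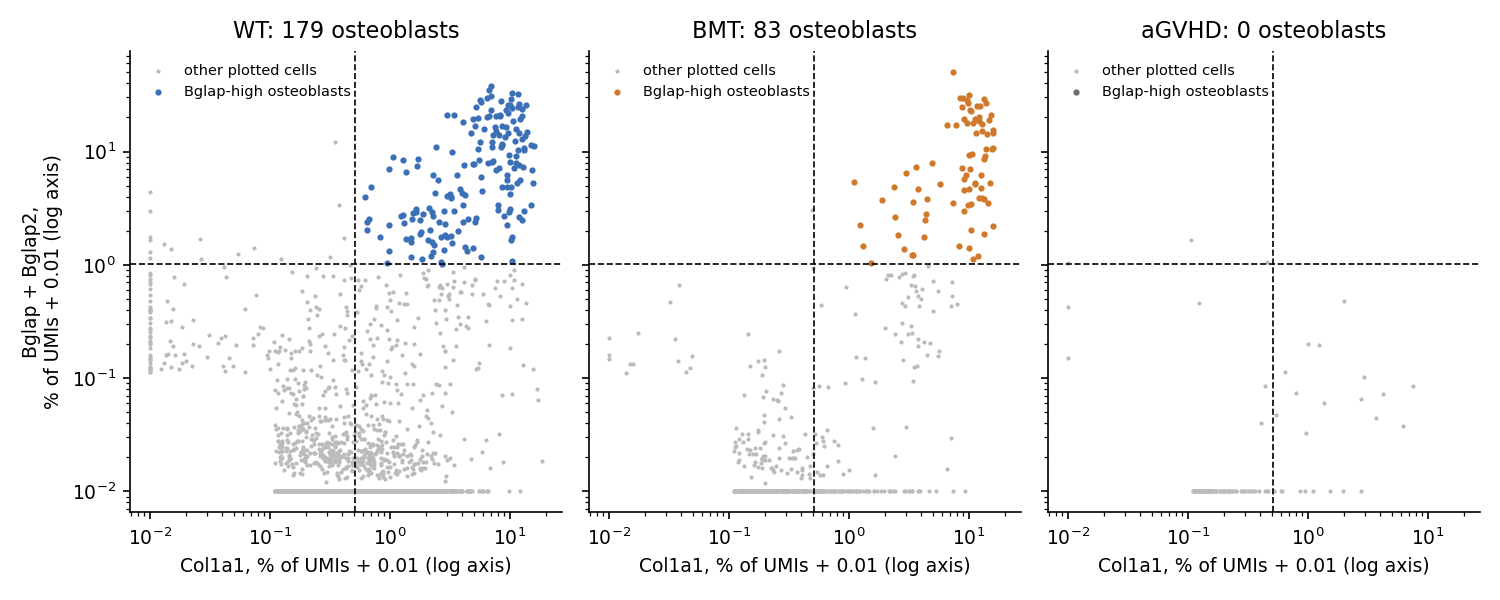
Share of UMIs in Bglap and Bglap2 (vertical) against the share in Col1a1 (horizontal), both as percent of a cell's UMIs plus 0.01 on log axes, for called cells with 0 UMIs of Cdh5 and Ptprc and at least 0.1% in either; dashed lines are the limits of 1% and 0.5%. The upper right corner holds 179 WT cells and 83 BMT cells and is empty in aGVHD.

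Osteocalcin-rich osteoblasts were present in WT and BMT, at shares of called cells whose ratio had an interval including 1, and were not found in aGVHD. They made up 2.51% (2.16 to 2.90) of called cells in WT and 2.29% (1.83 to 2.83) in BMT, a ratio of 0.913 (0.706 to 1.18). In aGVHD, 0 of 5568 cells leaves room for 0.0539% at 3 counts and for 0.0662% at the exact upper bound. Both other intervals lay above that limit. Only 3 aGVHD cells reached 1% osteocalcin, with up to 1.64%, and all 3 missed the Col1a1 limit.

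The picture changed when the osteoblasts were set against collagen-producing cells alone. Among called cells with Col1a1 at 0.5% or more and 0 UMIs of Cdh5 and Ptprc, they were 179 of 1193 (15.004%, 13.0 to 17.2) in WT and 83 of 238 (34.9%, 28.8 to 41.3) in BMT, a ratio of 2.32 (1.87 to 2.90). The aGVHD library held 24 such collagen-producing cells and 0 of them were selected, which allows up to 12.5% at 3 counts and 14.2% at the exact upper bound. The exact bound lies within the WT interval, so with 24 cells a difference from WT was not detectable, and it lies below the BMT interval. Loosening the osteocalcin limit to 0.25% selected 261 WT, 115 BMT and 1 aGVHD cells, and tightening it to 10% selected 64, 32 and 0. The shares describe what passed the sort.

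Several osteoblast transcripts were also scarce in the aGVHD library as a whole, droplets without a cell included. Over all barcodes, Bglap was at 3336 CPM (UMIs scaled to the same total in each library) in WT, 7413 in BMT and 16.3 in aGVHD. In droplets of 1 to 100 UMIs, which hold free RNA, it was at 3000, 2965 and 20.9 CPM. Sp7, the osteoblast transcription factor gene, was at 14.3, 12.8 and 0.430 CPM over all barcodes, and Ifitm5, a gene of mineralising osteoblasts, at 37.8, 65.0 and 2.402. Runx2 and Car3, also of the mature osteoblast list, were less scarce. Over all barcodes Runx2 was at 51.7, 66.2 and 20.8 CPM and Car3 at 79.9, 210 and 53.3. In the droplets of 1 to 100 UMIs, Car3 was at 46.9, 155 and 81.9 CPM, so higher in aGVHD than in WT. In such library sums, fewer osteoblasts and less of these RNAs per cell cannot be told apart. The selected cells held 78.6% of all Bglap UMIs of the WT library and 89.4% of those of BMT.

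The BMT osteoblasts were deeper than the WT osteoblasts. Their UMIs per cell ran from 2762 through a median of 37122 to 108823, against 1316, 13887 and 42681 in WT, a ratio of medians of 2.67. The ratio was 2.51 for LepR stromal cells (Cxcl12 at 0.5% or more of UMIs and at least 1 UMI of Lepr, selected the same way) and 0.942 for all called cells. The median number of genes per osteoblast was 4583 in BMT and 3072 in WT; with each cell thinned to 3000 UMIs it was 1018.5 over 82 BMT cells and 1101 over 167 WT cells, with 1 and 12 shallower cells left out. The BMT cells thus had more UMIs per cell but not more genes at equal depth. Whether the greater depth reflects more RNA per cell or the preparation was not tested.

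Osteocalcin varied widely from cell to cell in both libraries. The summed share of Bglap and Bglap2 ran from 1.004% through a median of 6.24% to 37.6% of UMIs in WT and from 1.03% through 6.25% to 50.6% in BMT. Over the cells of a library, the gene whose share followed it most closely was Bglap3, the third gene of the cluster, with Spearman's rho of 0.70 over 179 WT cells and 0.63 over 83 BMT cells. Col11a1, the gene of a chain of the fibril-forming type XI collagen, had 0.61 and 0.56, and Car3, a carbonic anhydrase gene, 0.62 and 0.47. Among the 1829 genes compared, the most negative by the weaker of the 2 values were Timp2, a metalloproteinase inhibitor gene (-0.54 and -0.55), Gpx3, a secreted glutathione peroxidase gene (-0.53 and -0.62), and Pik3r1, the gene of a regulatory subunit of PI3 kinase (-0.49 and -0.52). These values are descriptions: shares of a cell's UMIs share 1 total, so a gene holding up to 50.6% of it lowers the others. The 3 osteocalcin genes also share sequence, with 37.9% of the 50-base windows of the Bglap2 transcript found in Bglap3 transcripts. The part of read assignment in the value of Bglap3 was not tested.

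A part of the osteoblasts carried periosteal transcripts. Postn, the periostin gene of the periosteum, held at least 0.3% of UMIs in 32 of 179 WT cells (17.9%, 12.6 to 24.3) and 18 of 83 BMT cells (21.7%, 13.4 to 32.1); 25 WT and 9 BMT cells lay near this limit, so it cuts a range rather than a type. The Postn-rich cells had less osteocalcin, with medians of 2.61% against 7.97% in the other WT osteoblasts and 3.18% against 9.46% in BMT. In WT they held 0 UMIs of Dmp1, Ifitm5 and Car3, and Phex, a phosphate-regulating gene, was at 3.64 CPM against 340 in the others. Ostn, the gene of the secreted factor osteocrin, was instead at 1219 CPM against 62.9. In BMT Ostn was at 306 CPM in the Postn-rich cells against 4.91 in the others, so it stood higher in the Postn-rich cells of both libraries.

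The osteocalcin cluster lies on chromosome 3 of GRCm38, with Bglap at 88383501 to 88384464, Bglap2 at 88377736 to 88378699 and Bglap3 at 88368616 to 88372743, all on the minus strand. Of the 50-base windows of the 440-base main Bglap transcript, 74.7% also occur in Bglap2 transcripts and 20.5% in Bglap3 transcripts, so the split of reads among the copies is uncertain. As counted, Bglap made up 66.7% of Bglap plus Bglap2 UMIs in the WT osteoblasts and 69.1% in BMT. Bglap was at 78009 CPM in WT and 94389 in BMT, Bglap2 at 38953 and 42220, and Col1a1 at 76378 and 107255. CPM here is a gene's UMIs summed over the osteoblasts of a library and scaled by the sum of all their UMIs.

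Gene by gene, BMT was compared with WT on these sums. Of 6928 genes with at least 50 UMIs over both libraries, leaving out the genes used in the selection, 152 (2.19%) had a BMT level 2-fold or more above WT and 442 (6.38%) 2-fold or more below it. The median log2 ratio over these genes was -0.20. List counts below are read beside these shares of all genes, and list medians beside this median. A stricter size rule asked, besides the 2-fold difference, for an interval excluding 1 and a level on the higher side at least 2 times that of the same library's empty droplets; 31 genes (0.447%) passed it as higher and 51 (0.736%) as lower. The share of higher calls was 37.8% on this scale, 67.1% when libraries were scaled by the median of gene ratios, 50.7% when the total left out the selection, mitochondrial and ribosomal protein genes and 28.6% with the mean over cells; without the empty-droplet condition it was 25.6%.

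Most structural bone matrix genes differed less than 2-fold between the BMT and WT osteoblasts, 21 of the 28 measured. Ibsp, the gene of bone sialoprotein, ran from 0 through a median of 5055 to 106270 CPM per cell in WT and from 0 through 4313 to 55712 in BMT. The cells of the libraries overlapped over nearly the whole range, and the pooled level was 1.06-fold lower in BMT (1.04 to 1.08), at 7295 against 7729 CPM. Its log2 ratio ran from -0.41 to 0.12 over the alternative settings, so its direction depended on the setting. Col1a2, the second chain of type I collagen, was 1.23-fold higher (1.23 to 1.24), Sparc, the osteonectin gene, 1.16-fold higher (1.15 to 1.17) and Col11a1 1.26-fold higher (1.23 to 1.29). Of 28 measured bone matrix genes, 1 was 2-fold or more higher and 6 lower, beside 2.19% and 6.38% of all genes, with a median log2 ratio of -0.12. The higher gene was Spp1. Of the lower genes, Bglap3 passed the size rule, and Thbs4, Chad, Mgp, Sparcl1 and Fbln1, which other connective tissue cells also express, did not.

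Spp1, the gene of osteopontin (chromosome 5, 104435118 to 104441050), was the matrix gene with the largest increase in level in BMT. Its per-cell level ran from 0 through a median of 0 to 26143 CPM in WT, where 57 of 179 cells had a UMI, and from 0 through 21.2 to 14410 in BMT, where 45 of 83 had one. Most cells of both libraries were low and a minority was very high, and the ranges overlapped. Pooled, Spp1 was 2.19-fold higher in BMT (2.09 to 2.29), at 1905 against 871 CPM. With the osteocalcin limit at 0.5% the log2 ratio dropped from 1.13 to 0.53, and it was 0.81 as a mean over cells and 0.75 with cells thinned to 3000 UMIs. At 3000 UMIs per cell, 39.0% (28.4 to 50.4) of BMT and 19.8% (14.01 to 26.6) of WT osteoblasts had a Spp1 UMI, against 19.3% and 17.5% of LepR stromal cells.

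Genes of mineralisation and of osteoblast identity differed less than 2-fold for the most part. Alpl, the gene of alkaline phosphatase, which frees phosphate for mineral, was 1.84-fold lower in BMT (1.735 to 1.96), at 529 against 976 CPM. Per cell it ran from 0 through 870 to 6819 CPM in WT and from 0 through 501 to 2419 in BMT, so the BMT cells stood lower within an overlapping range. Sp7 was 1.47-fold lower (1.24 to 1.73), Phex 1.26-fold lower (1.14 to 1.39) and Ifitm5 1.08-fold lower (1.02 to 1.15), the last with a log2 ratio from -0.32 to 0.09 over the alternative settings. For Runx2 (1.10-fold lower, 0.967 to 1.26), Dmp1 (1.07-fold lower, 0.979 to 1.16) and Smpd3, a sphingomyelinase gene needed for mineralisation (1.06-fold lower, 0.993 to 1.12), the interval included 1. Of 17 measured mineralisation genes, 1 was at least 2-fold higher and 3 lower, with a median log2 ratio of -0.33. Of 23 measured transcription factor genes 1 was higher and 2 lower, with a median of -0.27. Over all genes, 2.19% were higher and 6.38% lower, and the counts are too small to set either list apart from all genes. By the size rule, 1 mineralisation gene, Spp1, was higher and 0 were lower, and 0 transcription factor genes passed.

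Genes that serve collagen export stood above the all-gene median without large single differences. Of 34 measured genes of collagen processing and secretion, 0 were higher by 2-fold or more and 2 lower, Loxl1 and Adamts14 (the latter down to 1.23-fold over the alternative settings), and the median log2 ratio was 0.31 beside -0.20 for all genes. Serpinh1, the gene of the collagen chaperone HSP47, was 1.31-fold higher in BMT (1.27 to 1.35), P4ha1, a collagen prolyl hydroxylase gene, 1.45-fold higher (1.30 to 1.61) and Ssr4, a gene of the translocon at the endoplasmic reticulum, 1.29-fold higher (1.22 to 1.37). Summed over the list, the level per cell ran from 3324 through a median of 9036 to 16649 CPM in WT and from 4080 through 10915 to 21733 in BMT, and 59 of 83 BMT cells lay above the WT median. Cthrc1, a secreted glycoprotein gene of bone-forming cells, was 1.83-fold higher (1.73 to 1.94), at 1093 against 597 CPM.

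Among genes associated with osteocytes and late osteoblasts, several secreted factors were lower in BMT. Ostn (chromosome 16, 27307489 to 27351212) was at 172 CPM in WT and 29.0 in BMT, 5.93-fold lower (4.73 to 7.51). It was detected in 41 of 179 WT and 14 of 83 BMT cells, with maxima of 4664 and 1895 CPM. At 3000 UMIs per cell it was detected in 19.8% (14.01 to 26.6) of WT and 12.2% (6.01 to 21.3) of BMT osteoblasts, with overlapping intervals. In LepR stromal cells the shares were 0.102% and 0%. Within the Postn-rich cells it was 3.99-fold lower (3.102 to 5.19) and within the others 12.8-fold lower (7.44 to 23.99), while as a mean over cells its log2 ratio was -1.87 against -2.57 as pooled. Dkk1, a secreted Wnt inhibitor gene, was 2.91-fold lower (2.02 to 4.27), but its log2 ratio was -0.48 with cells thinned to 3000 UMIs. Of 18 measured osteocyte-associated genes, 0 were at least 2-fold higher and 5 lower (Ostn, Tnfrsf11b, Dkk1, Mmp13 and Capg), beside 2.19% and 6.38% of all genes. Their median log2 ratio was -0.51, and 0.15 with cells thinned to 3000 UMIs. Of the 5 lower genes, 2 passed the size rule.

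Bglap3, the third gene of the osteocalcin cluster, was lower in BMT. It ran from 0 through a median of 67.0 to 1091 CPM per cell in WT and from 0 through 40.2 to 362 in BMT. The highest WT cells stood above all BMT cells, and the lower part of the ranges overlapped. Pooled, Bglap3 was 2.48-fold lower in BMT (2.08 to 2.97), at 57.7 against 143 CPM. Bglap and Bglap2 were 1.21 and 1.08 times their WT level, but they chose the cells and are no reference for Bglap3. Of the 50-base windows of the Bglap2 transcript, 37.9% also occur in Bglap3 transcripts. The part of read assignment in the Bglap3 difference was not tested. At equal depth of 3000 UMIs, 11.0% (5.14 to 19.8) of BMT and 26.9% (20.4 to 34.3) of WT osteoblasts had a Bglap3 UMI.

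Cdo1, the gene of cysteine dioxygenase, which breaks down cysteine, was 2.25-fold lower in BMT (2.04 to 2.48), with per-cell medians of 141 CPM in BMT and 308 in WT and maxima of 1038 and 2062. Its log2 ratio of -1.17 moved to -0.85 without the deepest 10% of cells, -0.91 after thinning and -0.96 under the median of gene ratios. The other genes that passed the size rule as lower with the largest bounds included Pi15, a secreted protease inhibitor gene (10.4-fold, 5.02 to 24.9, with 78 UMIs in WT and 8 in BMT), Hoxb2, a homeobox gene (6.39-fold, 3.25 to 14.01), Cldn10, a claudin gene (4.69-fold, 3.02 to 7.56) and Fbn2, the gene of the microfibril protein fibrillin-2 (2.54-fold, 1.90 to 3.42). Cldn10 was at a log2 ratio of -0.67 after thinning, against -2.23 as pooled, and over the alternative settings Pi15 ran from 3.93-fold to 24.6-fold and Hoxb2 from 3.64-fold to 7.85-fold lower.

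The genes that passed the size rule as higher in BMT were led by Gal, Socs1 and Ston2. Gal, which encodes the neuropeptide galanin, was at 46.4 CPM in BMT and 8.93 in WT, 5.20-fold higher (3.41 to 8.23), with 144 UMIs in 31 BMT cells and 26 UMIs in 16 WT cells. All 144 and 26 UMIs lay in cells that were not Postn-rich. Ston2, an endocytosis adaptor gene, was 5.37-fold higher (2.81 to 11.3; 2.72-fold to 7.15-fold over the alternative settings) and Nrbf2, an autophagy regulator gene, 3.03-fold higher (2.41 to 3.84). Nupr1, a stress-induced nuclear protein gene (chromosome 7, 126623249 to 126630861), ran from 0 through 845 to 5385 CPM per cell in WT and from 0 through 1611 to 9728 in BMT. BMT cells stood higher within an overlapping range, and the pooled level was 2.10-fold higher (2.03 to 2.18), at 2847 against 1354 CPM, with 1.98-fold as the lowest of the alternative settings. Hk2, the hexokinase gene of glycolysis, was 2.14-fold higher (1.84 to 2.49), with 1.82-fold as the lowest of the alternative settings, and Cdkn2a, a cell cycle inhibitor gene, 2.95-fold higher (1.90 to 4.74) but at a log2 ratio of 0.85 as a mean over cells.

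Interferon-response genes were the largest group at a higher level in the BMT osteoblasts. B2m, the light chain shared by MHC class I molecules (chromosome 2, 122147686 to 122153083), ran from 0 through a median of 519 to 3200 CPM per cell in WT and from 96.9 through 2507 to 9249 in BMT. The BMT median lay near the top of the WT range, though the ranges overlapped, and the pooled level was 3.55-fold higher (3.40 to 3.72), at 2980 against 839 CPM. Of 12 measured MHC class I genes, 8 were at least 2-fold higher and 0 lower, beside 2.19% and 6.38% of all genes. Their median log2 ratio was 1.76. Summed over the list, MHC class I RNA ran from 0 through 1391 to 10508 CPM per cell in WT and from 1481 through 5982 to 17410 in BMT. All 83 BMT cells lay above the WT median. MHC class II genes were too low to compare, with 0 of 8 measured.

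Of 24 measured interferon gamma response genes, 20 were at least 2-fold higher in BMT and 0 lower, beside 2.19% and 6.38% of all genes. Their median log2 ratio was 2.64. The type I interferon list had 19 measured genes, of which 13 were higher and 0 lower, with a median of 1.19. The gamma list median ran between 1.35 and 3.90 over the alternative settings and the type I median between 0.24 and 1.64. Summed per cell, the gamma list ran from 0 through a median of 362 to 6180 CPM in WT and from 0 through 1057 to 7948 in BMT, with 16 WT cells and 1 BMT cell at 0. Of the BMT cells, 70 of 83 lay above the WT median and 39 above the WT 90th percentile, so the difference was spread over most cells. Genes with 0 UMIs in WT entered these medians at a floor of 3 UMIs.

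Single interferon genes differed in how evenly they were spread. Irf1, the transcription factor that interferon gamma induces early, was 2.27-fold higher (1.97 to 2.63), at 205 against 90.3 CPM, and was detected in 62 of 83 BMT and 101 of 179 WT cells. Iigp1, an interferon-induced GTPase gene, was at 184 CPM in BMT and 15.8 in WT, with UMIs in 42 of 83 and 5 of 179 cells, and 91.3% of its WT UMIs lay in 1 cell. Its log2 ratio of 3.54 became 6.86 without the deepest 10% of cells. Cxcl9, the gene of a T cell chemokine, had 0 UMIs in WT and 272 in 18 BMT cells, at least 68.7-fold higher at the exact lower bound and 85.1-fold against the floor of 3 UMIs, and Cxcl10, of the same family, had 3 and 311 UMIs (97.3-fold, 33.0 to 474). The other 65 BMT osteoblasts had no Cxcl9 UMI. Cells with a UMI of these genes were deeper. The median was 52111 UMIs with Cxcl9 and 33745 without, and 43372.5 with Iigp1 and 28735 without. The part of depth in this unevenness was not tested.

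Free RNA was high for these genes in the BMT library. In BMT empty droplets B2m was at 3140 CPM, Irf1 at 325, Iigp1 at 371 and Bst2, the tetherin gene, at 428, and of these lists only Socs1 passed the size rule, which includes the empty-droplet condition. Cxcl12, at 3236 CPM in the same empty droplets, was at 35.1 CPM in the BMT osteoblasts. From haemoglobin and granule genes, which osteoblasts should lack, free RNA was estimated at 0.260% of the UMIs of the BMT osteoblasts and 0.198% of those of WT, the haemoglobin-rich cells left out. At these shares it would supply 0.274% of the B2m UMIs, 0.523% of the Iigp1 UMIs and 0.412% of the Irf1 UMIs of the BMT osteoblasts. For Cxcl9 it would be 4.14%. The estimate depended on the cells used: with the haemoglobin-rich cells kept, it was 0.364% in BMT and 8.10% in WT. The part of free RNA in the differences between BMT and WT was not tested. The 18 cells with Cxcl9 held 38 UMIs of Cxcl12, Lepr and Adipoq together, at most 9 in a cell.

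Socs1, the feedback inhibitor of interferon signalling (chromosome 16, 10782240 to 10785536), was the interferon-response gene that passed the size rule. It ran from 0 through a median of 0 to 782 CPM per cell in WT and from 0 through 56.7 to 788 in BMT, so the maxima were alike and the BMT cells were more often above 0. Pooled, it was 4.01-fold higher (3.28 to 4.94), at 165 against 41.2 CPM, and its log2 ratio stayed between 1.79 and 2.31 over the alternative settings. At 3000 UMIs per cell 23.2% (14.6 to 33.8) of BMT and 8.38% (4.66 to 13.7) of WT osteoblasts had a Socs1 UMI, against 10.4% and 8.998% of LepR stromal cells. The difference lay in the osteoblasts poor in Postn, where Socs1 was 4.96-fold higher (3.95 to 6.27); in the Postn-rich cells it was 1.05-fold lower (0.594 to 1.87). The 2 intervals did not overlap, but they leave out the spread between cells.

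**Figure D2:**
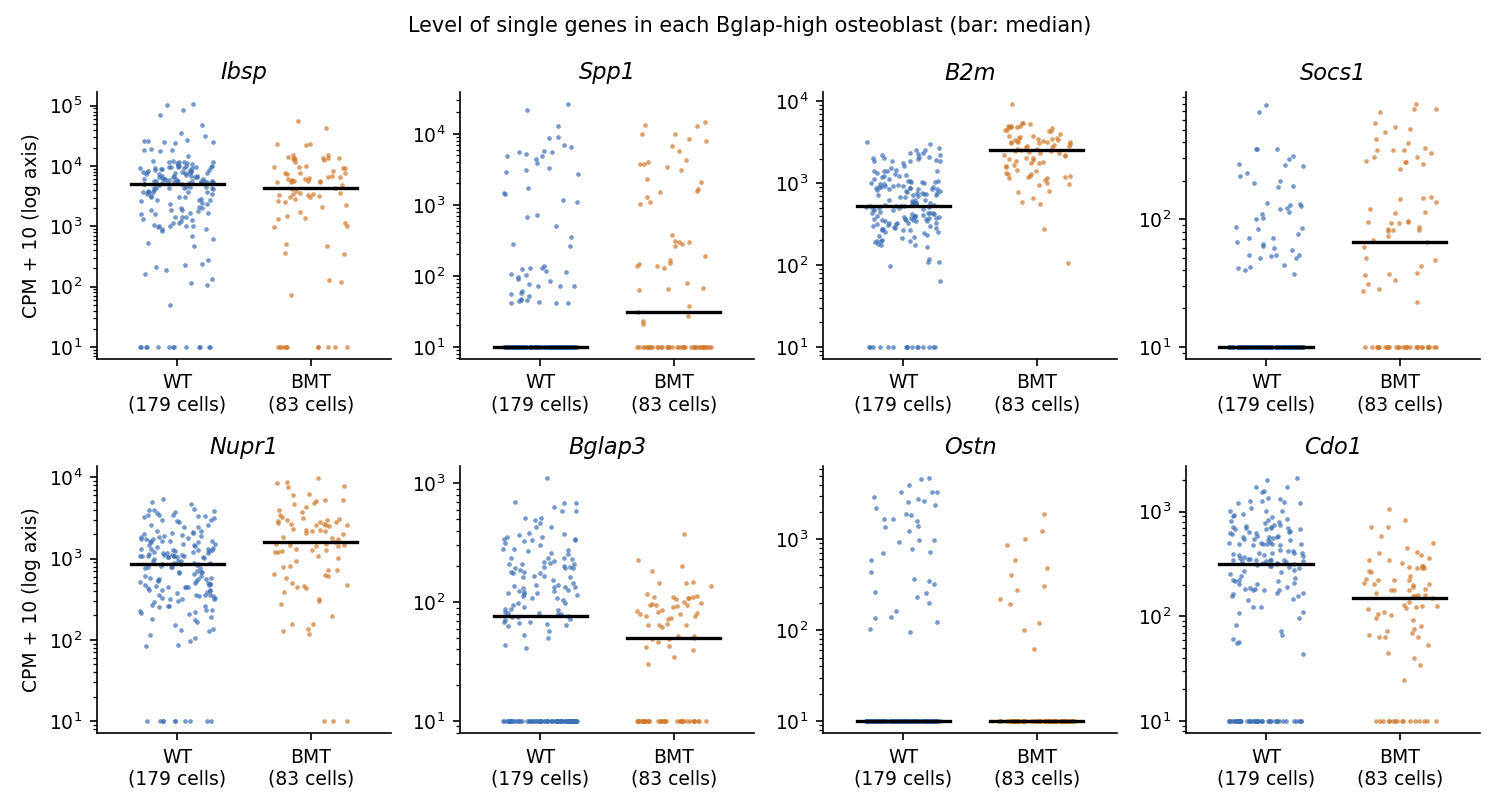
Level of 8 genes in each osteoblast (points; CPM plus 10, log axis) in WT and BMT, with bars at the medians. The medians of B2m, Nupr1 and Socs1 stand higher in BMT and those of Bglap3 and Cdo1 lower, while the medians of Ibsp are 5055 in WT and 4313 in BMT. Ostn had UMIs in 41 of 179 WT and 14 of 83 BMT cells, so its bar lies at the bottom in both libraries.

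Genes induced by p53, the factor that responds to DNA damage, differed unevenly. Cdkn1a, the p21 gene, was 1.33-fold higher in BMT (1.198 to 1.47), at 294 against 222 CPM, with a median per cell of 216 CPM in BMT and 131 in WT. In the Postn-rich osteoblasts it was at 475 CPM in BMT and 87.4 in WT, and in the others at 278 and 235. Btg2, an antiproliferative gene that is also an immediate early gene, was 3.92-fold higher (3.48 to 4.42), at 466 against 119 CPM, but its BMT level did not reach 2 times that of empty droplets (354 CPM). Of 22 measured p53 targets, 5 were at least 2-fold higher (Btg2, Mdm2, Plk2, Gadd45a and Fas) and 1 lower, Trp53 itself. Beside this, 2.19% of all genes were higher and 6.38% lower. The median log2 ratio of the p53 targets was 0.06. Of 24 measured immediate early genes 2 were higher and 1 lower, with a median of 0.38; Fos was 1.22-fold, Jun 1.63-fold and Egr1 1.63-fold higher.

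Stress genes of the endoplasmic reticulum differed less than 2-fold for the most part, with a median above that of all genes. Of 29 measured genes, 2 were at least 2-fold higher, Nupr1 and the asparagine synthetase gene Asns (log2 ratio 1.87), and 0 lower, with a median of 0.23. Over all genes, 2.19% were higher and 6.38% lower, with a median log2 ratio of -0.20. Atf3, a stress-induced transcription factor gene, was 1.78-fold higher (1.68 to 1.88), at 1134 against 638 CPM, and Hspa5, the chaperone BiP, 1.41-fold higher (1.31 to 1.51). All 44 genes of oxidative phosphorylation were measured and 0 passed 2-fold in either direction, with a median of -0.29. Summed per cell their level ran from 1992 through 10922 to 20520 CPM in WT and from 3222 through 9341 to 15559 in BMT, and 18 of 83 BMT cells lay above the WT median.

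Signalling genes of the BMP and Wnt pathways were more often 2-fold lower than higher, as were all measured genes (6.38% lower and 2.19% higher). Id3, a BMP target that holds back differentiation, ran from 0 through 1689 to 6463 CPM per cell in WT and from 0 through 640 to 4838 in BMT. BMT cells stood lower within an overlapping range, and Id3 was 2.48-fold lower when pooled (2.36 to 2.60), at 777 against 1928 CPM. Id2 was 2.34-fold lower (2.06 to 2.66); over the alternative settings Id3 came down to 1.86-fold and Id2 to 1.63-fold. Of 31 measured BMP and TGF-beta genes 10 were at least 2-fold lower and 1 higher, with a median log2 ratio of -0.38. Id3 and Id2 stood under the empty-droplet condition, and Bmp8a, a BMP ligand gene, passed the size rule at 2.98-fold lower (1.95 to 4.69; up to 6.87-fold over the alternative settings). Of 22 measured Wnt genes 5 were lower and 1 higher, with a median of -0.55. Those past the size rule were Nkd2, Dkk1, Lrp4 and Fzd5 as lower and Notum, a secreted Wnt inhibitor gene, as higher (log2 ratio 1.03). Lrp4 and Fzd5 were under 2-fold in some alternative settings, down to log2 ratios of -0.89 and -0.81.

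Some niche and growth factor genes were lower in the BMT osteoblasts and others were not. Cxcl12, the chemokine that retains blood-forming cells, was at 272 CPM in WT and 35.1 in BMT, 7.74-fold lower (6.33 to 9.55; 4.13-fold to 13.2-fold over the alternative settings), with 23.99% of its WT UMIs in 1 cell. Both levels lay below those of empty droplets, 1832 and 3236 CPM. Kitl, the stem cell factor gene, was 3.23-fold lower (2.21 to 4.81) and Igf1, an insulin-like growth factor gene, 10.2-fold lower (6.53 to 16.9), both also below empty droplets in WT. Over the alternative settings Kitl ran from 1.64-fold to 4.52-fold lower and Igf1 from 3.003-fold to 51.4-fold lower. Of 17 measured niche factor genes 7 were at least 2-fold lower and 1 higher, Spp1, beside 6.38% and 2.19% of all genes. Their median log2 ratio was -0.74 (-1.86 to -0.53 over the alternative settings). By the size rule 0 were lower and 1, Spp1, was higher. Summed per cell with Spp1 included, the list had a median of 1124 CPM in WT and 1625 in BMT. Of the BMT cells, 45 of 83 lay above the WT median. With cells thinned to equal depth, Cxcl12 was detected in 19.8% (14.01 to 26.6) of WT and 14.6% (7.80 to 24.2) of BMT osteoblasts. For Kitl the shares were 8.38% (4.66 to 13.7) and 7.32% (2.73 to 15.2), so each pair of intervals overlapped. Tgfb1 and Cdh2, which encode a growth factor and N-cadherin, had log2 ratios of 0.07 and 0.22. Of 11 measured genes of the IGF axis 5 were lower and 0 higher. Tnfsf11, the RANKL gene that drives osteoclast formation, had 10 UMIs in WT and 13 in BMT, too few to compare. Its decoy receptor Tnfrsf11b, osteoprotegerin, was 3.75-fold lower (2.67 to 5.37) and stood below the empty-droplet condition.

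With the empty-droplet condition left out, genes of other connective tissue cells were among those with the largest lower bounds of the fold in BMT below WT. Thbs4, a thrombospondin gene of tendon, had 302 UMIs in 21 WT cells and 4 in BMT (80.5-fold, 31.1 to 297), and Comp, a cartilage and tendon matrix gene, was 23.7-fold lower (17.9 to 32.0). Mgp, an inhibitor of calcification, was 25.9-fold lower (17.7 to 39.2), with 38.4% of its WT UMIs in 1 cell. All 3 were lower in the WT osteoblasts than in WT empty droplets, where they were at 229, 1375 and 4229 CPM. Markers of chondrocytes exceeded 1% of UMIs in 8 WT and 1 BMT osteoblasts, and fibroblast markers in 24 and 3. The part of such transcripts in the lower genes of the niche and IGF lists was not tested.

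**Figure D3:**
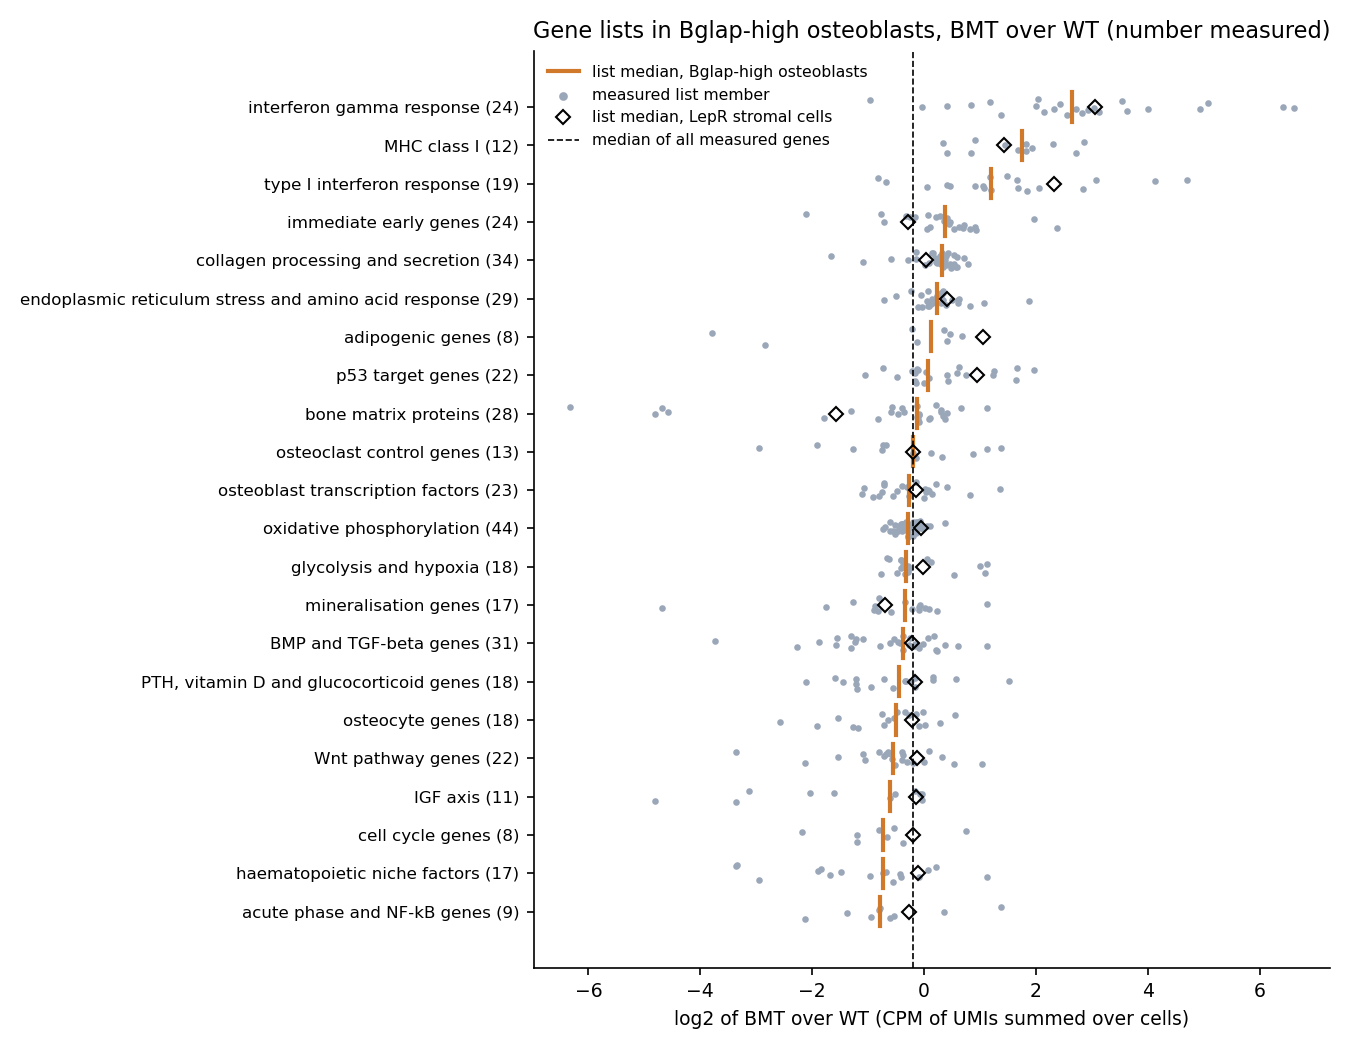
Log2 ratio of BMT over WT in the osteoblasts for each measured gene (points) of the gene lists, with the list median in osteoblasts (bars) and in LepR stromal cells (diamonds); the dashed line is the median of all measured genes, -0.20. The 3 interferon lists have medians of 2.64, 1.19 and 1.76, and the medians of the other lists lie between -0.78 and 0.38.

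LepR stromal cells of the same libraries were used to see where the osteoblasts differed from another stromal cell type. They numbered 1059 in WT and 506 in BMT, and of 10778 measured genes 5.47% were higher in BMT by 2-fold or more and 4.55% lower. Among the gene lists, the medians of the 2 cell types lay furthest apart for bone matrix genes. Ibsp was 18.0-fold lower in BMT LepR cells (17.2 to 18.8), at 276 against 4962 CPM, but 1.06-fold lower in the osteoblasts, a ratio of the ratios of 17.0 (16.2 to 17.8). Cthrc1 was 12.2-fold lower in LepR cells (8.01 to 19.3) and 1.83-fold higher in osteoblasts, a ratio of ratios of 22.2 (14.6 to 33.9). Of 24 bone matrix genes measured in LepR cells, 15 were at least 2-fold lower, with a median log2 ratio of -1.57 against -0.12 in the osteoblasts.

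Spp1 went opposite ways, 1.57-fold lower in LepR cells (1.49 to 1.66) and higher in osteoblasts, a ratio of ratios of 3.44 (3.20 to 3.696). Car3 was 6.91-fold higher in LepR cells (5.65 to 8.51) and 1.16-fold lower in osteoblasts (1.11 to 1.205), and Gal had 46 UMIs in WT and 1 in BMT LepR cells. Btg2 was 1.06-fold lower in LepR cells (1.02 to 1.10), so its ratio was 4.16 times (3.67 to 4.70) greater in osteoblasts. Cdkn1a was the reverse, 2.50-fold higher in LepR cells (2.37 to 2.64) and 1.33-fold in osteoblasts. Of 32 p53 targets measured in LepR cells, 15 were at least 2-fold higher, beside 5.47% of all genes measured there.

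The interferon lists were higher in both the osteoblasts and the LepR stromal cells. B2m was 2.32-fold higher in LepR cells (2.28 to 2.36), so that its ratio was 1.53 times (1.46 to 1.61) greater in osteoblasts, while the level itself stayed lower in osteoblasts, at 2980 CPM in BMT against 6573 in LepR cells. Iigp1 was 15.4-fold higher in LepR cells (14.5 to 16.4), and its ratio in osteoblasts relative to that was 0.756 (0.556 to 1.03), an interval that included 1. Socs1 differed more, at 1.25-fold in LepR cells (1.08 to 1.46) and 4.01-fold in osteoblasts, a ratio of ratios of 3.20 (2.50 to 4.10). In LepR cells, 30 of 34 measured genes of the interferon gamma list were at least 2-fold higher, beside 5.47% of all genes. Their median log2 ratio was 3.05. Each of these ratios compares the same 2 libraries, so a difference between libraries that touches all cells enters both.

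Postn-high cells, periosteal-type cells with Postn and Col1a1 at 0.3% or more of UMIs each and outside the selection, were the nearest osteolineage population, with 68 WT and 41 BMT cells. Of 4176 genes measured in them, 5.89% were higher in BMT by 2-fold or more and 6.3% lower. Alpl was 2.06-fold higher in BMT there (1.805 to 2.35) and 1.84-fold lower in the osteoblasts, a ratio of ratios of 0.264 (0.228 to 0.304). Cdkn1a was 6.10-fold higher (4.78 to 7.88), against 1.33-fold in the osteoblasts pooled, a ratio of ratios of 0.217 (0.167 to 0.283). The osteoblasts were not alike in this. Their Postn-rich cells had 87.4 CPM of Cdkn1a in WT and 475 in BMT, and the others 235 and 278. Nupr1 was 1.77-fold lower (1.55 to 2.02) and B2m 1.62-fold higher (1.44 to 1.83), so both ratios were greater in the osteoblasts, by 3.72 times (3.25 to 4.26) and 2.19 times (1.93 to 2.485). Ostn, in contrast, was lower in BMT in Postn-high cells as well, by 3.78-fold (3.12 to 4.62). Few interferon-response genes were measured in Postn-high cells. Of 5 interferon gamma response genes, 0 were at least 2-fold higher and 1 lower, with a median log2 ratio of 0.24. Of 5 type I genes, 1 was higher and 2 lower (median 0.31), and of 5 MHC class I genes, 1 was higher and 0 lower (median 0.70).

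**Figure D4:**
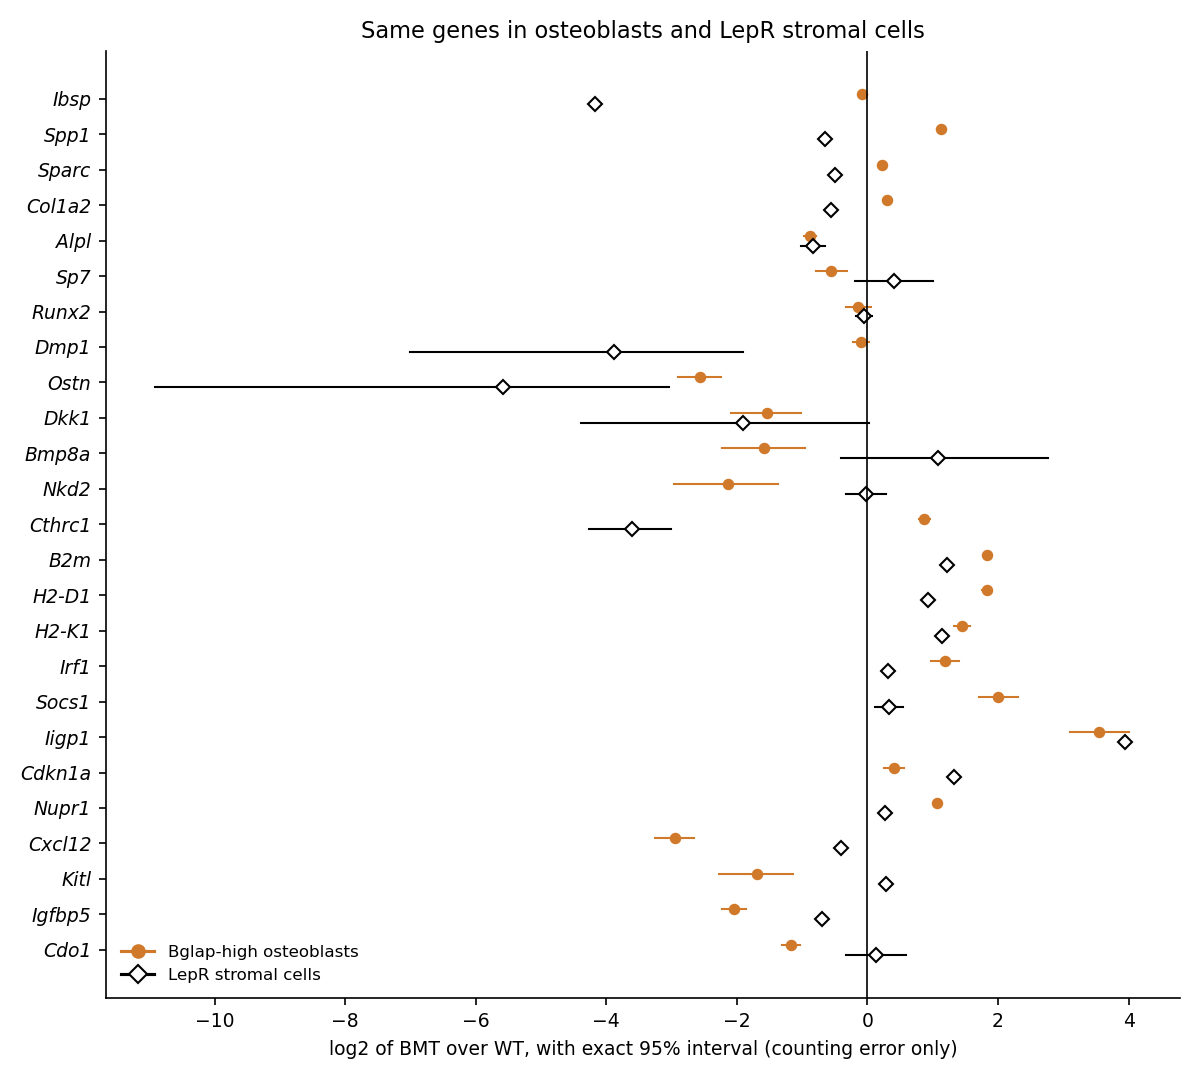
Log2 ratio of BMT over WT with 95% counting intervals for 25 genes in the osteoblasts and in LepR stromal cells. Ibsp and Cthrc1 are 18.0-fold and 12.2-fold lower in LepR cells and near or above the WT level in osteoblasts, and B2m lies on the higher side in both.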

How the data were processed

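The deposited files hold counts: whole numbers of UMIs per gene and barcode in 3 libraries, not normalised by the authors. The authors used Cell Ranger with mm10, and Seurat, per the submitters' processing notes; Cell Ranger 3.1.0 wrote the matrices, per the file headers. Each lists 27998 genes and empty droplets, so cells were called here. Groups are those of the labels: WT, BMT and aGVHD, with 1 library each. Library totals were 86575425, 44219063 and 67439098 UMIs.

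UMIs were summed over the osteoblasts of a library and scaled to CPM. The ratio of BMT to WT has an exact binomial interval given both counts, and the ratio of 2 ratios, like that of 2 shares, a normal interval on the log scale. Shares carry exact Clopper-Pearson intervals. A gene with 0 UMIs in a library was set to 3 UMIs. Empty droplets are barcodes of at most 100 UMIs. Likely doublets were the cells with the top Scrublet scores (0.8% of cells for each 1000 called) and were kept. The genes named are the 12 highest and 12 lowest past the size rule by the interval bound nearest to 1, a fixed set of bone genes, and the members of 23 gene lists with the most UMIs or the largest change; the clock genes, the connective tissue genes without the empty-droplet condition and further list members were named after their values were seen. The members and lists were chosen with earlier results of these data known. Gene coordinates come from GENCODE M21 (GRCm38), where 27722 of 27998 genes matched, and promoters from RefSeq. Tools were Python 3.11.15, numpy 2.4.6, scipy 1.17.1, pandas 2.3.3 and scanpy 1.11.5. On simulated pooled counts with the real depths, intervals held the true fold for 96.0% of 6718 unchanged genes. Of raised genes, 49 of 50 at 4-fold and 23 of 49 at 2-fold were called, with the empty-droplet condition left out. The counts were drawn with the counting error that the intervals assume and without spread between cells. The simulation therefore checks the computation only, not how the intervals or the size rule perform on these cells. Alternatives, 17 planned and 3 added after seeing the data, are given in the closing section. No sample column was left unused. Values of some genes are not reported here.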

Additional observations from a re-analysis of the deposited data

How the results depend on the processing

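The ratio of shares of osteoblasts, 0.913, ran from 0.835 to 0.967 over 10 alternatives, and every interval included 1. The count of higher genes, 31, was 53 under the median of gene ratios, 12 with cells thinned to 3000 UMIs (1637 genes measured), 48 and 20 with gene minimums of 20 and 100 UMIs, 84 and 8 at 1.5-fold and 3-fold, and 152 without the empty-droplet condition. The count of lower genes, 51, was 26 under the median of gene ratios, 105 as a mean over cells, 14 after thinning, 90 and 27 with the gene minimums, 141 and 9 at the other folds, and 442 without the empty-droplet condition. The minimums, folds and empty-droplet condition change what is called by construction; for the scaling and the mean over cells the cause was not tested. Alternatives for single genes were run for the genes named by the rule and not for every called gene; among those run, no called value changed sign. Of the alternatives for single genes, 1516 stayed within the counting interval of the reported value and 477 moved outside it; for list medians 318 stayed within the central range of the members' values and 12 moved, among them that of osteocyte genes, from -0.51 to 0.15 after thinning. The median log2 ratio of all genes, -0.20, was 0.00 under the median of gene ratios and -0.12 with a total without selection, mitochondrial and ribosomal protein genes. Ibsp ran from -0.41 to 0.12 on the log2 scale, so its direction is not settled, and likewise Dmp1 from -0.37 to 0.15 and Ifitm5 from -0.32 to 0.09. No paired analysis was possible because each group holds 1 library. Depth limits genes under 50 UMIs and the aGVHD share, and 1 library per group limits everything else.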

Other observations

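Several genes of the circadian clock were lower in the BMT osteoblasts; they were picked after Dbp was seen among the genes with the largest folds, and are no list set beforehand. Dbp, a clock output gene, had 143 UMIs in 77 WT osteoblasts and 4 UMIs in 4 BMT osteoblasts, 38.1-fold lower in BMT. Tef, of the same family, was 13.3-fold lower (150 against 12 UMIs), Per3 18.97-fold lower (89 against 5) and Per2 5.15-fold lower (58 against 12). Arntl, a clock activator gene, had 5 UMIs in WT and 22 in BMT, and Npas2 had 1 and 13. In LepR stromal cells Dbp was 3.45-fold, Tef 2.49-fold, Per3 3.24-fold and Per2 3.55-fold lower in BMT, and Arntl had 15 and 123 UMIs. Nr1d1 and Clock were close to level in the osteoblasts, with 77 and 84 UMIs for Nr1d1 and 95 and 110 for Clock. None passed the size rule in the osteoblasts: Dbp was at 49.1 CPM in the WT osteoblasts and 53.01 in WT empty droplets, Tef at 51.5 and 46.3, and Per3 at 30.6 and 20.3. The hour of collection is not given in the sources used here, and its part was not tested.

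A few osteoblasts carried Bglap2 almost without Bglap. In 4 of 179 WT cells Bglap made up under 5% of Bglap plus Bglap2, with 1 and 197, 1 and 148, 4 and 112, and 5 and 113 UMIs of Bglap and Bglap2; the next WT cell was at 24.7%. In BMT 0 of 83 cells did so, and the lowest was at 21.1%. The 4 cells had 19 to 26 UMIs of Alpl and 0 of Dmp1, Ifitm5, Car3 and Bglap3. Called cells of aGVHD, of which none was selected, held 215 UMIs of Bglap and 335 of Bglap2, a Bglap share of 39.1%. Because the copies share most of their sequence, this split depends on how reads were assigned.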
